A study of Mus musculus with 48 samples.

Results

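The HOX genes are the homeobox transcription factors that lie in 4 clusters of the mouse genome. They were taken as every RefSeq gene named Hoxa, Hoxb, Hoxc or Hoxd with a number, which gave 39 of 21000 protein-coding genes. The Hoxa cluster holds 11 of them at chr6:52155367-52260880, the Hoxb cluster 10 at chr11:96194316-96368253, the Hoxc cluster 9 at chr15:102921131-103036852 and the Hoxd cluster 9 at chr2:74668225-74765142, in mm10. Each cluster was taken with 50 kb on either side. These 4 windows held 145 of the 287329 regions of open chromatin that result when the peaks of all samples are merged where they overlap.

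HOX proteins give cells their position along the body axis, and within each cluster the genes stand in the order of the axis they pattern. Genes of paralogue groups 1 to 3, at the 3′ end, act in the hindbrain and pharyngeal arches, and those of groups 9 to 13, at the 5′ end, act in the lower trunk, limbs and genital tract. In pluripotent cells the clusters are known to be kept silent by Polycomb complexes on CpG-rich promoters, and retinoic acid turns on the 3′ genes first.

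Open chromatin was measured by ATAC-seq, in which a transposase cuts accessible DNA, in P19 cells, a mouse embryonic teratoma line that is pluripotent. There were 4 signalling states, each with 2 biological replicates and 12 labelled libraries. SB-431542 cells had their NODAL/Activin receptors inhibited with the compound at 10 µM overnight and for 1 h more after a wash, and serve as the state without signalling. The 1 h Activin and 8 h Activin cells were washed free of the inhibitor and given 20 ng/ml Activin, and Untreated cells lived under the NODAL and GDF3 that they make themselves.

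The authors pooled all libraries of a state into 1 peak list, so that no value has a replicate and no difference between states could be tested. Peaks numbered 234758 in the SB-431542 list, 233336 and 209212 after 1 h and 8 h of Activin, and 220004 in the Untreated list. Values given as 4 numbers in a row keep this order of lists throughout. The methods of the study give read depth only as a range over the merged samples, and not for each list. The lowest local background among the peaks, a guide to depth, stood at 92.4%, 78.5% and 84.8% of the SB-431542 list in the other lists, in that order. Promoters of all 8 pluripotency markers checked, Pou5f1, Sox2 and Nanog among them, had a peak in every list. Of the markers of other tissues, 3 of 3 for neurons, 1 of 3 for liver and 1 of 3 for muscle had one in every list, and 1 of 3 for blood in every list but 8 h Activin.

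The base composition of HOX promoters differs from gene to gene, and the 4 promoters that follow show the extremes of the peak values given further on. Each holds 300 bases around a RefSeq start site, most of them upstream, on the strand of the gene in GRCm38.p6, and capitals mark every CpG. Hoxd1 had the highest fold enrichment (chr2:74762730-74763029, plus strand, 29 CpGs) and Hoxa6 the lowest mean of the genes with a peak in every list (chr6:52208623-52208922, minus strand, 26 CpGs). Hoxa7 (chr6:52218524-52218823, minus strand, 9 CpGs) and Hoxb8 (chr11:96281655-96281954, plus strand, 13 CpGs) had no promoter peak in any list.
Hoxd1 promoter: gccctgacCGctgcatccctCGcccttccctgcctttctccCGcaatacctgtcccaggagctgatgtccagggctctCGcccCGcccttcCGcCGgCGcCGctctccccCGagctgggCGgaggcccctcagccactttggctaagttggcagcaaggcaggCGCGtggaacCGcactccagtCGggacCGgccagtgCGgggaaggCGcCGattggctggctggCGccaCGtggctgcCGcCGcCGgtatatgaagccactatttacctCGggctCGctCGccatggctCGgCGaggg
Hoxa6 promoter: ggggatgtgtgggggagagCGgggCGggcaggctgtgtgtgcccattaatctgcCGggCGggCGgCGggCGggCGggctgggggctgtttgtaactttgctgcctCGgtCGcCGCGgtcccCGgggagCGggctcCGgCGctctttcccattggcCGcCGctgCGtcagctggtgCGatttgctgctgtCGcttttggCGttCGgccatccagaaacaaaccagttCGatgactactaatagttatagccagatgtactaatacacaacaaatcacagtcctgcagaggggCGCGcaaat
Hoxa7 promoter: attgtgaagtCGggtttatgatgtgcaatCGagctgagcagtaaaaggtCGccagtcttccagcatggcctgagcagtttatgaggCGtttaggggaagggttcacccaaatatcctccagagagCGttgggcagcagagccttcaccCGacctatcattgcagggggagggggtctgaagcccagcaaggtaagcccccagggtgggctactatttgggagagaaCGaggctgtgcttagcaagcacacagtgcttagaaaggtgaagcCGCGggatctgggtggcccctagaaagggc
Hoxb8 promoter: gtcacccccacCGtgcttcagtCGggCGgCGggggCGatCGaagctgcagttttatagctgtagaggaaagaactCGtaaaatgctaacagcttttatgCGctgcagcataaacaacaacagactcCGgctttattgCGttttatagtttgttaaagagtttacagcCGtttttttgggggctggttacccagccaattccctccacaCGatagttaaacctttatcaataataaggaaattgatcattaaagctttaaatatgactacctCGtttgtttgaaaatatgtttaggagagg

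CpGs occurred in the Hoxd1 window at 0.805 of the number that its C and G content would give by chance, against 0.923 for Hoxa6, 0.405 for Hoxa7 and 0.97 for Hoxb8. Over the 39 HOX genes the median of this ratio was 0.657, and over all coding genes it was 0.595. For each gene the ratio was taken at the furthest upstream start site, whereas a peak was counted at any of its start sites. In genes with more than 1 start site the ratio and the peak can thus belong to different sites. The 30 HOX promoters with a peak in every list had a median of 0.77, the 5 with a peak in some lists 0.57, and the 4 with none 0.342. Hoxb8 stood apart from the other 3 without a peak, Hoxa7, Hoxa9 and Hoxb3, which lay at 0.405, 0.28 and 0.216. Among the 35 promoters with a peak in at least 1 list, the ratio and the mean fold enrichment were only weakly related (Spearman's rho 0.172 across promoters, which share clusters and are not independent).

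Most HOX promoters were open in all 4 states. A peak overlapped the window from 1000 bp before to 100 bp after a start site at 32 of the 39 genes with SB-431542, 32 at 1 h, 32 at 8 h and 35 in Untreated cells. Over all coding genes the share with such a peak was 74.1%, 73.6%, 73.3% and 73.5%, against 82.1%, 82.1%, 82.1% and 89.7% of the HOX genes. With a -log10 q of at least 5 the HOX genes with a peak numbered 30, 30, 26 and 27, or 76.9%, 76.9%, 66.7% and 69.2%. The shares of all coding genes were then 71.2%, 70.0%, 69.9% and 70.1%. At 8 h and in Untreated cells the HOX share was thus close to that of all genes and no longer above it. All 9 Hoxd genes had a promoter peak in every list.

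**Figure D1:**
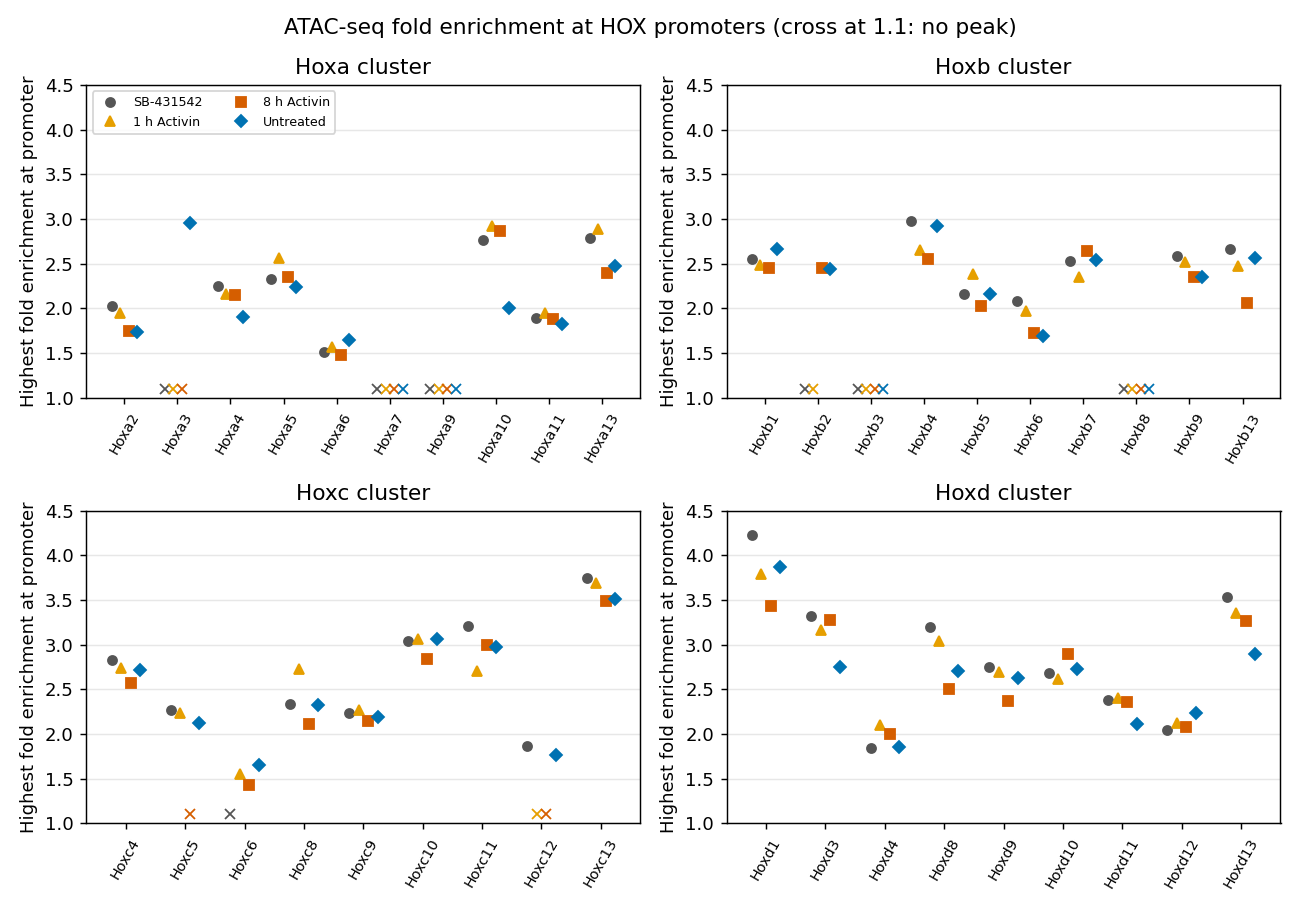
Highest fold enrichment of the peaks at each HOX promoter (vertical axis, a ratio) for 38 genes of the 4 clusters in the order of their paralogue number (horizontal axis), with 1 symbol per signalling state and a cross where a list has no peak there. Values run from 1.43 at Hoxc6 to 4.22 at Hoxd1, and the 4 states of a gene mostly lie close together.

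The peaks at HOX promoters were weak and wide. Fold enrichment, the mean read pileup of a peak over its local background, had a median of 2.57 at HOX promoters with SB-431542, 2.54 at 1 h, 2.36 at 8 h and 2.44 in Untreated cells. At all coding promoters with a peak the medians were 4.57, 4.40, 4.34 and 4.24. A fold enrichment under 3 was found at 25 of 32 HOX promoters with SB-431542, 26 of 32 at 1 h, 28 of 32 at 8 h and 32 of 35 in Untreated cells, where 17.4%, 19.0%, 19.3% and 20.2% of all coding promoters with a peak fell under it. The median width of the widest HOX promoter peak was 2116.5, 1963.5, 2047 and 2030 bp, against 1450, 1429, 1423 and 1460 bp for all coding promoters. Peaks wider than 2000 bp stood at 20 of 32 HOX promoters, 15 of 32, 17 of 32 and 18 of 35, in the same order, and at 23.3%, 21.8%, 22.3% and 24.4% of all coding promoters with a peak.

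**Figure D2:**
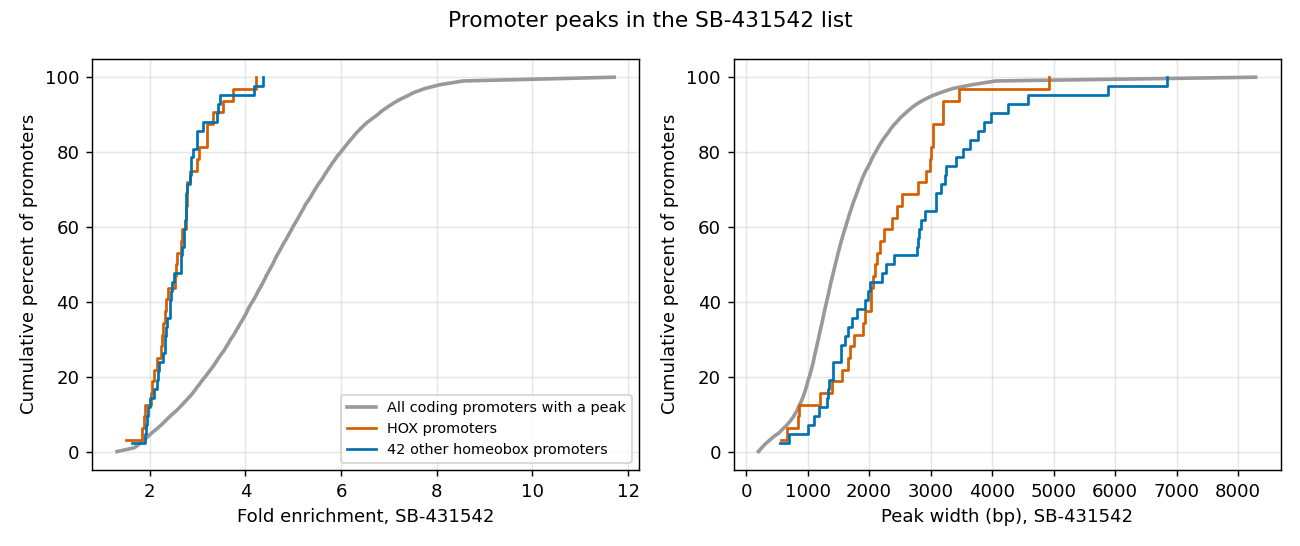
Cumulative percent of promoters (vertical axes) by highest fold enrichment (left) and by width of the widest peak in bp (right) in the SB-431542 list, for all coding promoters with a peak (grey), 42 other homeobox genes (blue) and HOX genes (orange). The HOX and other homeobox curves lie together at low fold enrichment, with medians of 2.57 and 2.66, to the left of the median of 4.57 for all coding promoters.

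Low fold enrichment in wide peaks was also found at developmental homeobox genes outside the clusters. All 42 of those listed, such as Otx2, Lhx1 and Pax6, had a promoter peak in every list, and their median fold enrichment was 2.66, 2.53, 2.43 and 2.43 with median widths of 2333.5, 2420.5, 2220 and 2379 bp. Their median estimated pileup, a read count explained in the next paragraph, was 355, 281, 245 and 221 reads. The 6 ParaHox genes, the evolutionary relatives of the clusters that include Cdx2 and Pdx1, had medians of 2.75, 2.87, 2.95 and 2.58. Higher medians, though below those of all coding promoters, were found at genes that act with HOX proteins or on HOX chromatin. The 9 HOX cofactors of the PBX, MEIS and PKNOX families, which bind DNA next to HOX proteins, had peaks in every list and medians of 4.09, 3.97, 3.62 and 3.97, and the 13 chromatin regulators, among them the Polycomb genes Ezh2, Eed and Suz12, had 3.84, 3.68, 3.60 and 3.75. Members differed widely with SB-431542. The cofactors ran from 2.74 at Meis2 to 8.15 at Pbx4, and the chromatin regulators from 1.44 at Kdm6b to 5.70 at Kdm6a. Of 13 upstream regulators such as the retinoic acid receptors, 12 had a peak in every list, with medians of 2.64, 2.63, 2.57 and 2.49, and only Evx2, next to Hoxd13, had none.

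Fold enrichment divides by the signal around the peak. This local background was lower at HOX promoters than at promoters in general and higher over the regions of the gene clusters than over regions in general. At HOX promoters it had a median of 57.4, 49.1, 44.7 and 40.6 reads, against 75.1, 60.7, 56.7 and 57.6 reads at all coding promoters with a peak. The other homeobox genes differed from HOX genes in this, with a higher median of 147, 119, 102 and 96.6 reads. The local background estimated from the fold enrichment and the p-value of a peak had a median of 52.9 reads at the 92 regions inside the gene clusters that were present in all lists, with SB-431542, against 31.6 at all 162505 such regions of the genome. Their estimated pileup was 130 and 92.4 reads. At HOX promoters the median estimated pileup was 160 reads with SB-431542, 131 at 1 h, 107 at 8 h and 94.3 in Untreated cells, below the 361, 281, 257 and 255 reads of all coding promoters with a peak and below those of the other homeobox genes. The part of the local background in the low fold enrichment was not tested.

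The cover of peaks was lopsided around HOX start sites. With SB-431542 a peak covered 79.1% of the 43 HOX start sites and 69.1% of all 26242 coding start sites. At 1000 bp into the gene the shares were 58.1% and 22.4%, and at 1000 bp before the start site they were 27.9% and 18.6%. In the other lists the share at 1000 bp into a HOX gene was 55.8%, 58.1% and 53.5%. When a peak had to have its centre inside the promoter window, HOX promoters with a peak numbered only 11, 12, 11 and 12, which is 28.2%, 30.8%, 28.2% and 30.8%, against 43.8%, 43.6%, 43.0% and 44.2% of all coding genes.

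**Figure D3:**
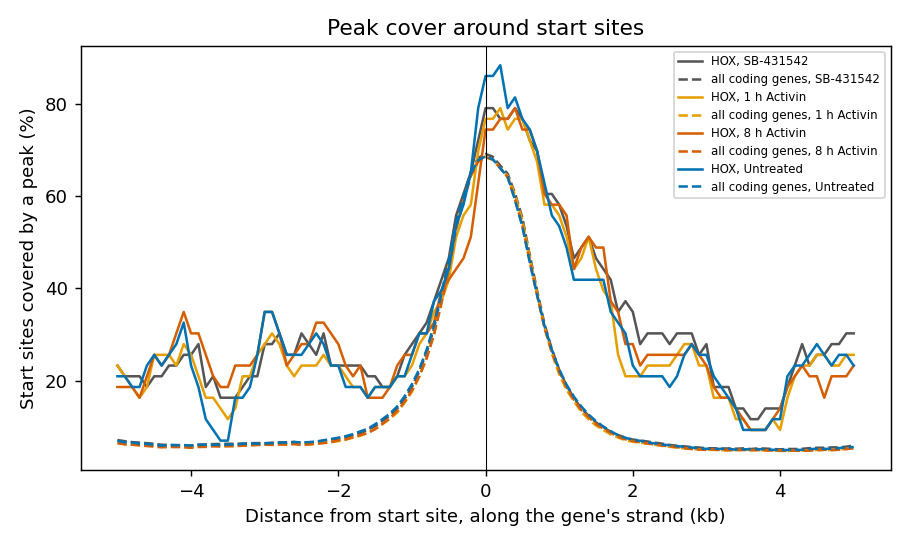
Percent of start sites covered by a peak (vertical axis) at each distance from the start site in kb, along the strand of the gene (horizontal axis), for 43 HOX start sites (solid) and 26242 coding start sites (dashed) in the 4 lists. At 1 kb into the gene the solid lines lie between 53.5% and 58.1% and the dashed lines between 21.4% and 22.4%.

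The 4 genes without a promoter peak had the nearest peak a short way inside the gene. It began 619, 619, 635 and 619 bp past the start site of Hoxa7, and 1240, 1242, 1266 and 1266 bp past that of Hoxa9, a gene of blood progenitors. At Hoxb3, which acts in the hindbrain, it lay 356, 421, 331 and 366 bp past the nearer of its 2 start sites. At Hoxb8 it lay 486, 487, 459 and 1181 bp inside. With the window extended to 1000 bp after the start site, 37, 38, 38 and 37 of the 39 HOX genes had a peak.

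A further 5 genes had a promoter peak in some lists only. Hoxa3, needed for the thymus and parathyroid, had its promoter window reached by a peak in Untreated cells alone. That peak belongs to a region at chr6:52211203-52213304 present in every list, with 3.50, 3.39, 3.16 and 2.96, the lowest in Untreated cells, and in the other lists the nearest peak began 779, 226 and 279 bp inside the gene. Hoxb2 had one at 8 h (2.45) and in Untreated cells (2.44), and a peak 271 and 355 bp inside with SB-431542 and at 1 h. Hoxc5 had 2.27, 2.23 and 2.13 with SB-431542, at 1 h and in Untreated cells, and at 8 h its nearest peak lay 161 bp inside. Where these 3 genes had no promoter peak, one thus began within 779 bp of the start site. Hoxc6 had weak peaks of 1.55, 1.43 and 1.66 at 1 h, at 8 h and in Untreated cells, none of them wider than 387 bp, and none with SB-431542, where the nearest lay 1577 bp inside. Hoxc12 had peaks of 1.87 with SB-431542 and 1.77 in Untreated cells. At 1 h and 8 h its nearest peak began 126 and 197 bp inside the gene, and its region was present in every list.

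In the anterior groups 1 to 3, values differed between paralogues. The start sites used for Hoxa3 and Hoxd3 lie 57.7 and 53.1 kb from the 3′ end of their clusters. That of Hoxa3 lies between those of Hoxa6 and Hoxa7, and that of Hoxd3 between those of Hoxd4 and Hoxd8. Hoxd1 had 4.22 with SB-431542, 3.79 at 1 h, 3.44 at 8 h and 3.87 in Untreated cells, the highest of all HOX genes in every list but 8 h Activin, where Hoxc13 reached 3.48. Hoxb1, a marker of the fourth rhombomere, had 2.55, 2.48, 2.45 and 2.66. Hoxa2, which sets the identity of the second pharyngeal arch, had 2.02, 1.95, 1.74 and 1.74. Hoxd3 had 3.33, 3.16, 3.27 and 2.74 in narrow peaks of at most 848 bp.

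The central groups 4 to 8, taken by paralogue number and not by position of the start site, had the lowest medians. The median over their promoters with a peak was 2.30 with SB-431542, 2.35 at 1 h, 2.13 at 8 h and 2.16 in Untreated cells, against 2.78, 2.85, 2.45 and 2.74 in the anterior and 2.68, 2.65, 2.38 and 2.48 in the posterior groups. Hoxa6 had 1.51, 1.56, 1.47 and 1.64, in peaks of 575, 421, 360 and 404 bp, and Hoxb6 had 2.08, 1.97, 1.72 and 1.70. Hoxd4 had 1.84, 2.096, 2.00 and 1.86. Its values at 1 h and 8 h are from peaks of 313 and 555 bp that ended upstream of the start site. With SB-431542 and in Untreated cells a peak of 1194 and 1242 bp covered it. Hoxd8 was the highest of the central genes with SB-431542 and at 1 h, with 3.19, 3.05, 2.50 and 2.70, whereas Hoxb7 led at 8 h. Hoxb4, known from blood stem cells, led in Untreated cells, with 2.98, 2.65, 2.56 and 2.92. Hoxb7 carried the widest promoter peak of the HOX genes with SB-431542 and at 1 h, with widths of 4927, 4972, 3353 and 4198 bp, at a fold enrichment of 2.53, 2.35, 2.64 and 2.54.

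Among the posterior groups, Hoxc13 stood highest in every list and Hoxd13 next to it in the first 3. Hoxc13, a gene of hair and nail, had 3.75, 3.69, 3.48 and 3.51 in peaks of 1754, 1739, 1740 and 1725 bp, and Hoxd13, which shapes the digits, had 3.53, 3.35, 3.27 and 2.90. The paralogues Hoxa13 and Hoxb13 had 2.78, 2.89, 2.40 and 2.48, and 2.66, 2.47, 2.06 and 2.56. Hoxc10, a gene of the lumbar cord and hindlimb, stayed between 2.84 and 3.07 in all lists. Hoxa10, active in the uterus and lower trunk, has 2 annotated start sites with a region at each. The region at chr6:52239857-52241529 had 2.76, 2.92, 2.86 and 3.03, and the one at chr6:52231971-52235105 had 2.09, 2.03, 1.896 and 2.00. In Untreated cells only a peak of the second region reached a promoter window, so the plotted Hoxa10 value of 2.00 there is not from the same region as the other 3. Hoxa11, which patterns the forearm and the kidney, had 1.89, 1.95, 1.88 and 1.82. At 8 h the value is from a peak of 382 bp that did not cover the start site, and the nearest peak began 277 bp inside the gene. In the other lists a peak of 1659, 1693 and 1463 bp covered it.

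Differences between states were small at HOX promoters. Of the 30 HOX promoters with a peak in all lists, 17 had a lower fold enrichment at 1 h than with SB-431542, 24 at 8 h and 21 in Untreated cells, where Hoxa10 was counted through its other start site. The values of Hoxd4 at 1 h and 8 h and of Hoxa11 at 8 h were from peaks that did not cover the start site. The HOX shares were 56.7%, 80% and 70%. Among all 14955 coding promoters with a peak in all lists they were 80.0%, 74.7% and 83.0%, higher at 1 h and in Untreated cells and close to the HOX share at 8 h. The median log2 ratio of fold enrichment to SB-431542 was -0.03, -0.10 and -0.06 at HOX promoters and -0.05, -0.06 and -0.09 at all coding promoters. The log2 ratio of estimated pileup, which also holds the depth of the list, had medians of -0.26, -0.50 and -0.61 at HOX promoters, -0.33, -0.60 and -0.67 at the 42 other homeobox genes and -0.34, -0.47 and -0.48 at all coding promoters.

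Inside the clusters peaks were dense. They covered 34.5% of the Hoxa gene span with SB-431542, 32.9% at 1 h, 32.2% at 8 h and 29.4% in Untreated cells. The Hoxb span was covered to 25.2%, 21.5%, 24.6% and 23.3%, the Hoxc span to 26.4%, 25.0%, 27.3% and 25.2%, and the Hoxd span to 32.7%, 30.3%, 32.5% and 33.2%. The whole genome was covered to 6.72%, 6.82%, 5.91% and 6.47%. The 50 kb flanks were covered to between 1.69% and 14.1%, with the lowest shares beyond Hoxd1, where 1.92%, 1.69%, 3.39% and 2.35% was covered.

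The regions of the windows were mostly common to all states. A peak was present in all 4 lists in 120 of the 145 regions, or 82.8%, against 56.6% of all regions of the genome, and 8 regions were found in 1 list only. The shared regions numbered 28 of 37 in the Hoxa window, 37 of 43 in Hoxb, 27 of 36 in Hoxc and 28 of 29 in Hoxd. The HOX regions were also wider, with a median of 1144 bp against 668 bp. The part of width in the share of common regions was not tested.

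The strongest of them were narrow sites apart from the HOX promoters. The highest fold enrichment of the windows lay in an exon of the non-coding gene Gm53, at chr11:96261368-96261920, 9.69 kb upstream of Hoxb9, with 8.84, 7.73, 7.74 and 7.97 in peaks of 553, 552, 550 and 547 bp. A site 45.2 kb upstream of Hoxa13, at chr6:52305693-52306515 and nearest to Evx1, had 6.92, 5.42, 5.74 and 6.08. One 35.1 kb downstream of Hoxc4, at chr15:103069108-103069835, had 6.11, 4.74, 5.46 and 5.29. Between Hoxd13 and Evx2, at chr2:74661568-74662150, a site had 4.18, 4.15, 4.14 and 3.87. Of the 10 regions with the highest mean fold enrichment, none was centred on a promoter, and those after the first 3 had means between 3.99 and 4.17.

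To set states side by side, the fold enrichment of each shared region was turned into its percentile among all shared regions of the list. At 1 h Activin, 12 of the 120 HOX regions were more than 10 percentile points higher than with SB-431542, and 12 were more than 10 points lower, where the shares over all shared regions were 11.3% and 12.1%. At 8 h, 11 were higher and 28 lower, against 18.7% and 18.5% of all. In Untreated cells 8 were higher and 30 lower, against 19.9% and 18.8% of all. The counts at 8 h and in Untreated cells thus lay at 9.17% and 6.67% of HOX regions for higher and 23.3% and 25% for lower. The median shift of HOX regions was 1.89 points at 1 h, -2.76 at 8 h and -2.08 in Untreated cells.

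The estimated pileup gave another balance at 8 h. With it, 12 regions were higher and 10 lower at 8 h, or 10% and 8.33%, where 15.3% and 15.1% of all shared regions were, and 3 higher and 43 lower in Untreated cells, where 16.5% and 15.8% of all shared regions were. Relative to the median of all shared regions, the log2 pileup of HOX regions in Untreated cells was -0.24 in the median and below that of all regions at 92 of 120, with medians of -0.36 in Hoxa, -0.11 in Hoxb, -0.16 in Hoxc and -0.42 in Hoxd. The same value was -0.07 at 1 h and -0.08 at 8 h. With 1 list per state, the spread between replicates behind these values is unknown.

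**Figure D4:**
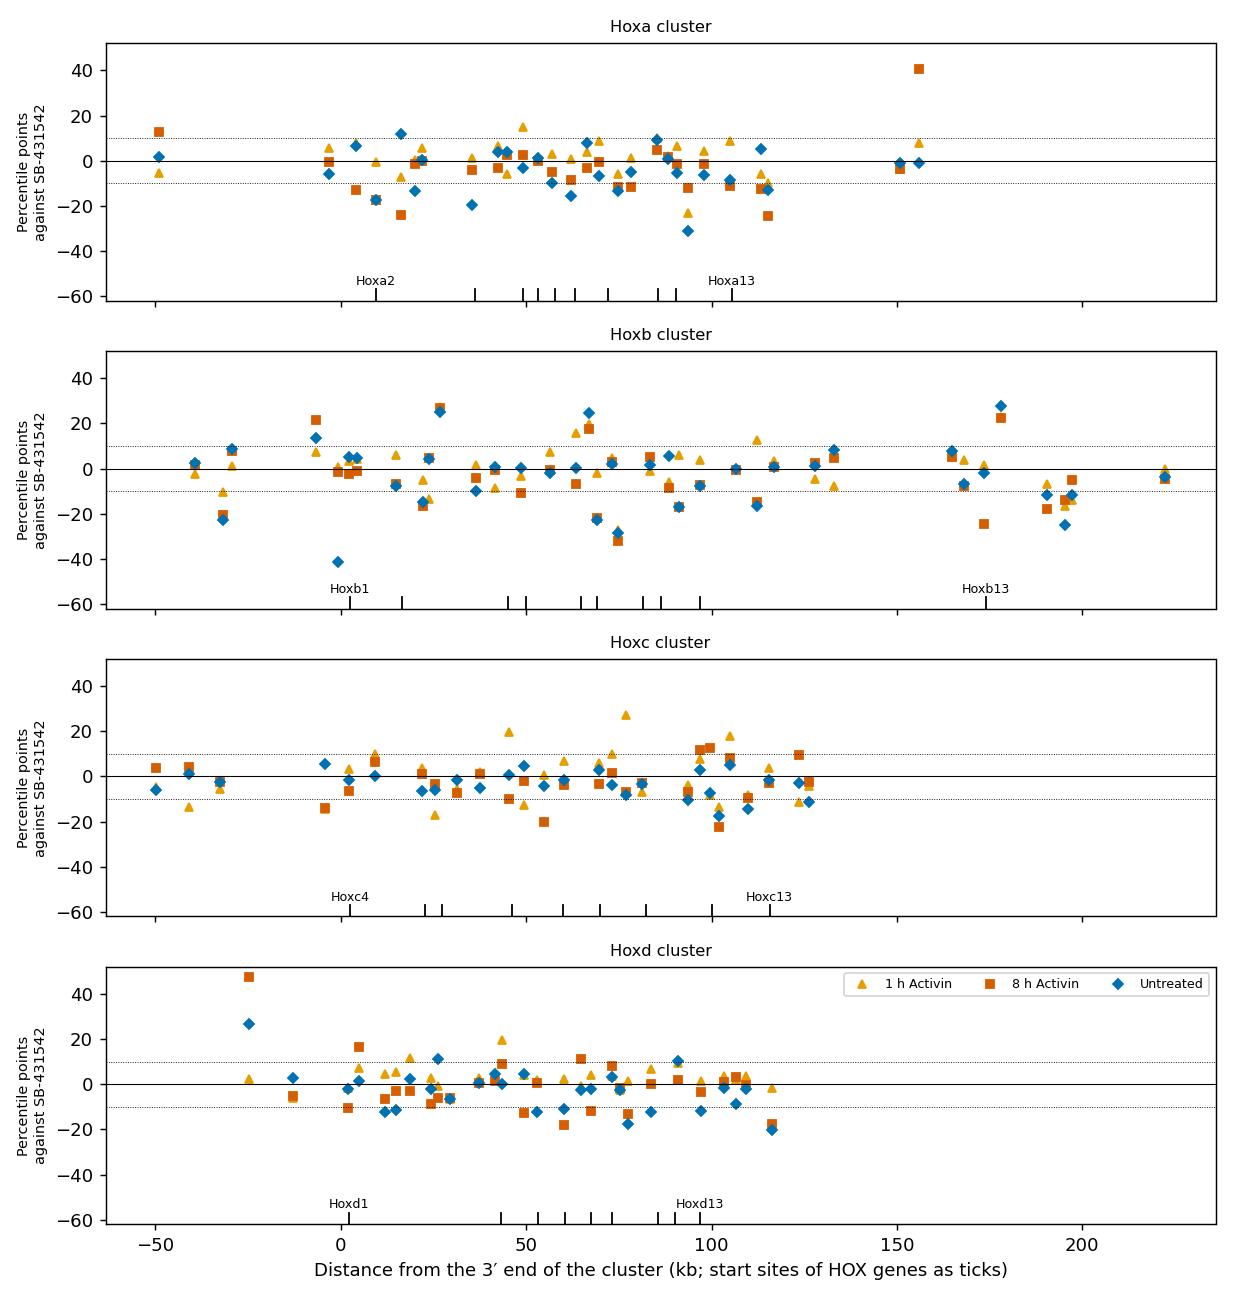
Shift in percentile of fold enrichment against SB-431542 (vertical axis, percentile points) of the 120 shared HOX regions along the 4 clusters (horizontal axis, kb from the 3′ end of the cluster), for 1 h Activin, 8 h Activin and Untreated. Ticks mark the start sites of 38 HOX genes, dotted lines 10 points, and most symbols lie between the dotted lines, and the highest, at 47.7 points, lies outside the Hoxd cluster.

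The largest difference in the windows lay outside the Hoxd genes. At chr2:74789290-74790517, 26.9 kb downstream of the start site of Hoxd1 in intergenic DNA, the values were 2.47, 2.37, 5.16 and 3.39. The 8 h value stood 47.7 percentile points above SB-431542 and the Untreated value 26.8 points, and the 1 h value was close to SB-431542. The peak measured 446, 516, 1228 and 616 bp, and its estimated pileup was 73.3, 68.4, 139 and 89.2 reads on a local background of 29.0, 28.2, 26.1 and 25.6.

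A second site was highest at 8 h at the other end of the Hoxa window. In an intron of Evx1os, the antisense gene of the homeobox gene Evx1, at chr6:52310446-52312389, fold enrichment was 1.66, 1.79, 2.44 and 1.66, and the 8 h value lay 40.6 points above SB-431542. A site 9.10 kb downstream of the Hoxb1 start, at chr11:96374388-96375328, had 3.06, 3.15, 4.21 and 3.59, which is 21.5 points at 8 h. An intron of Haglr, the non-coding gene that starts next to Hoxd1, held a site 2.90 kb upstream of Hoxd1 with 3.77, 3.98, 5.17 and 3.69, at chr2:74759349-74760814.

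Some Hoxb regions were higher in all 3 other lists than with SB-431542. A Hoxb3 intron, at chr11:96340704-96342346, had 2.28, 2.93, 3.07 and 2.99, or 27.5, 26.9 and 25.2 points. At chr11:96189949-96190683, 4.00 kb upstream of Hoxb13, a gene of the prostate and tail, it was 2.83, 3.67, 3.84 and 4.11, or 22.9, 22.5 and 27.6 points. An exon of Hoxb6 at chr11:96300408-96302130 had 1.78, 2.04, 2.08 and 2.22. The 5 regions furthest above SB-431542 at 1 h also held a site 5.51 kb downstream of the Hoxc11 start, at 1.89, 2.30, 1.79 and 1.77, and one at Hoxc8, at 2.33, 2.73, 2.11 and 2.33. Neither stood above SB-431542 at 8 h.

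Other regions were lower. The largest difference was seen 3.26 kb downstream of the Hoxb1 start, at chr11:96368693-96369348, with 3.45, 3.22, 3.28 and 2.11, which put Untreated cells 41.4 points below SB-431542 while both Activin lists stayed near it. An intron of Hoxb5os, at chr11:96293084-96293659, had 2.44, 1.84, 1.82 and 1.88. A region in an intron of Hoxa11os, the antisense gene of Hoxa11, had 2.40, 1.88, 2.12 and 1.81, and a region 9.80 kb upstream of Hoxa13 had 4.56, 3.50, 2.97 and 3.47. The region over the Hoxa3 intron and Gm15050, at chr6:52169999-52173094, had 3.55, 2.96, 2.53 and 4.13, lowest at 8 h and highest in Untreated cells. The region over the Hoxb13 start had 2.66, 2.53, 2.06 and 2.56.

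**Figure D5:**
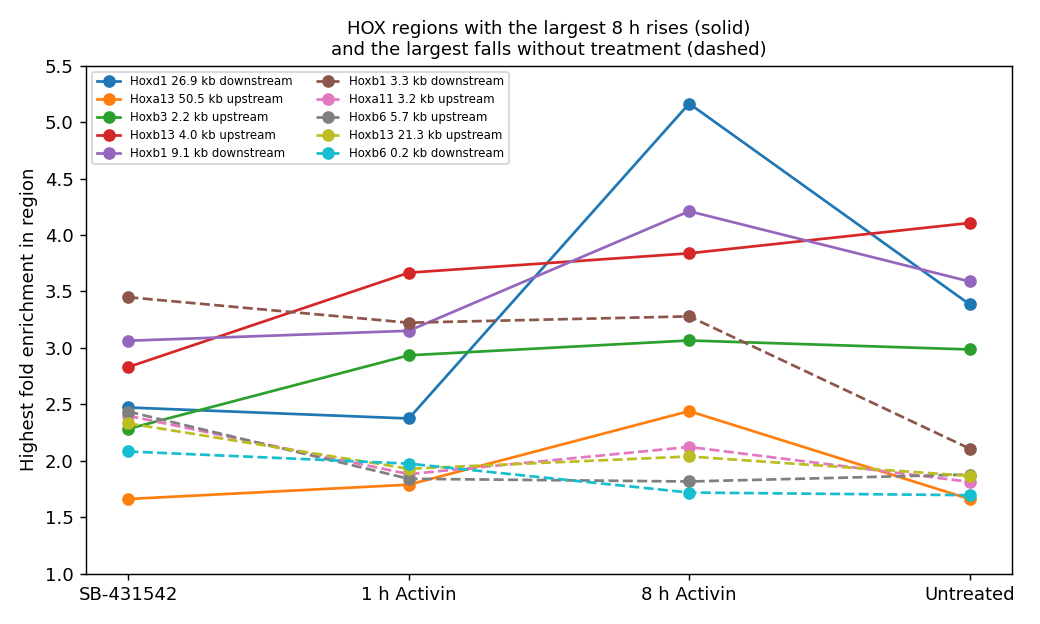
Highest fold enrichment (vertical axis, a ratio) in the 4 lists (horizontal axis) of the 5 HOX regions furthest above SB-431542 in percentile at 8 h (solid) and the 5 furthest below it in Untreated cells (dashed), named by the nearest HOX gene. The region 26.9 kb past Hoxd1 goes from 2.47 to 5.16 at 8 h, and the one 3.3 kb past Hoxb1 is at 3.45, 3.22, 3.28 and 2.11.

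The central 300 bases of 3 of these regions are given on the plus strand of GRCm38.p6 with CpGs in capitals, as the strongest region, the one furthest above SB-431542 and the one furthest below. They are the region in Gm53 (chr11:96261494-96261793, 20 CpGs), the one 26.9 kb past Hoxd1 (chr2:74789753-74790052, 2 CpGs) and the one 3.26 kb past Hoxb1 (chr11:96368870-96369169, 5 CpGs).
Gm53 exon region: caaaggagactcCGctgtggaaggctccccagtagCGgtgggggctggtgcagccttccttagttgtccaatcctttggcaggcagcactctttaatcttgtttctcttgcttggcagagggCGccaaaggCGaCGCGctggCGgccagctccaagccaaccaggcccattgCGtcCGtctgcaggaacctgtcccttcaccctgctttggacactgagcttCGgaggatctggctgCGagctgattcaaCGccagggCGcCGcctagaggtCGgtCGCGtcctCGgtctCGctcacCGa
Region past Hoxd1: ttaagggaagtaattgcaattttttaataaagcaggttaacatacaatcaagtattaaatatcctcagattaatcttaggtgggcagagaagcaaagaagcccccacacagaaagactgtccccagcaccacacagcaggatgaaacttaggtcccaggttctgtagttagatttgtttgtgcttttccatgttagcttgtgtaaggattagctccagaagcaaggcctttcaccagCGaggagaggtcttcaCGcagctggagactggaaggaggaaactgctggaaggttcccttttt
Region past Hoxb1: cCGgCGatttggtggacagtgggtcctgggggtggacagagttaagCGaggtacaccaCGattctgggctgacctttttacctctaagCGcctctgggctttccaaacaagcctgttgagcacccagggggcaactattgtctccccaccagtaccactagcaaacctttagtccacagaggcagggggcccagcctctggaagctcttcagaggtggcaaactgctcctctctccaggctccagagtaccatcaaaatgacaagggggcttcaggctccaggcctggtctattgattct

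The strong Gm53 region was rich in CpGs, at 0.702 of the number given by its base content, whereas the region that was highest at 8 h had 0.141 and the one lowest in Untreated cells 0.213. The median over the centres of all 145 HOX regions was 0.477, and over all regions of the genome 0.149.

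Sequence motifs were searched as exact letters on both strands. In the central 300 bases, the FOXH1 motif AATNNACA, to which the partner of SMAD2 binds, occurred in 12 of 145 HOX regions (8.28%, against 17.5% of all regions), the core motif of CTCF, an architectural protein, in 2 (1.38% against 4.46%), the PBX-HOX motif TGATTNAT in 5 (3.45% against 4.08%) and the TCF/LEF motif CTTTGAT in 7 (4.83% against 5.30%). The SMAD palindrome GTCTAGAC was found in 1 (0.69% against 0.28%), and the retinoic acid motifs DR5 and DR2, direct repeats of a receptor half-site, in none (0.149% and 0.186% of all regions). The matches are of letters, and no binding was measured.

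Of the matches in the HOX regions, 5 in or near the regions described here are shown, chosen after their values were seen, with 24 bases on either side, with the motif in capitals and on the strand of the motif. The FOXH1 letters past Hoxd1 lie at chr2:74790061-74790068 and those in the Hoxb3 intron at chr11:96342157-96342164, both on the plus strand. Both regions hold a match to another motif that is not shown. It is TCF/LEF past Hoxd1 (chr2:74790124-74790130, minus strand) and PBX-HOX in the Hoxb3 intron (chr11:96341207-96341214, plus strand). The PBX-HOX letters upstream of Hoxb13 lie at chr11:96190063-96190070 on the minus strand, and the CTCF core between Hoxd13 and Evx2 at chr2:74662115-74662126 on the plus strand. The only DR2 motif over the whole length of the HOX regions lies in a Hoxa10 intron at chr6:52233816-52233829 on the plus strand, in the second Hoxa10 region described above.
FOXH1 past Hoxd1: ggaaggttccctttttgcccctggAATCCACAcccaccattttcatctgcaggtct
FOXH1 in Hoxb3 intron: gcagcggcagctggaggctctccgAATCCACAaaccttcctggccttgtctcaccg
PBX-HOX upstream of Hoxb13: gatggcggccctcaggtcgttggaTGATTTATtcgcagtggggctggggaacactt
CTCF between Hoxd13 and Evx2: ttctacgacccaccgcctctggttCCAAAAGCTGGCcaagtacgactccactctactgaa
DR2 in Hoxa10 intron: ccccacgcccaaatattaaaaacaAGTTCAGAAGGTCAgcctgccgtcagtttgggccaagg

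The RefSeq promoter table held a sequence for 22 HOX genes, with 24 start sites. These were Hoxa and Hoxd genes apart from Hoxb1, Hoxb4, Hoxb8 and Hoxc4, so the Hoxb and Hoxc clusters are hardly covered. Among them the FOXH1 motif was in 5 promoters (20.8%, against 12.2% of all 32851), all of Hoxa or Hoxd genes. The PBX-HOX motif was in 2 (8.33% against 3.22%), the TCF/LEF motif in 1 (4.17% against 3.73%) and the other 4 motifs in none.

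Regions gained or lost against SB-431542 were mostly weak, and their share was below that of all regions except for the gains at 8 h. Of the 145 HOX regions, 3 were gained and 4 lost at 1 h (2.07% and 2.76%), where 9.48% and 9.86% of all regions were. At 8 h, 13 were gained and 5 lost (8.97% and 3.45%), against 8.12% and 17.1%, so that the gains were close to the share of all regions. In Untreated cells 8 were gained and 6 lost (5.52% and 4.14%), against 10.6% and 15.6%. The strongest gain was a region found at 8 h alone, at chr6:52115861-52116323 in the 3′ flank of the Hoxa cluster, with a fold enrichment of 3.18 and a -log10 q of 15.9. The nearest gene to it is Halr1, a non-coding gene that had its only promoter peak in the same list, at 1.85. In an exon of Hotair, the non-coding RNA of the Hoxc cluster, a region at chr15:102947350-102948269 was absent with SB-431542 and at 1 h and present at 8 h (1.98) and in Untreated cells (2.70, with a -log10 q of 11.0). The other gains had a -log10 q of at most 5.94.

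Of the lost regions, the highest -log10 q with SB-431542, 12.3, belonged to a region 7.22 kb past the Hoxc5 start, with 2.67, 2.40, none and 3.25. Another, at chr6:52137881-52138161 in the 3′ flank of the Hoxa cluster, had 2.56 with SB-431542 and 2.41 at 1 h, and no peak at 8 h or in Untreated cells. The loss with the highest -log10 q at 1 h, 5.91, lay 6.59 kb past Hoxb1, where the other lists had 1.96, 1.87 and 1.91.

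The clusters also hold microRNA genes, some of which are known to target HOX transcripts. Their mature sequences from RefSeq (GRCm38.p6) are given with the seed, bases 2 to 8, in capitals, since miR-10a and miR-10b share a seed and so do miR-196a and miR-196b. Mir10a lies at chr11:96317165-96317274, Mir10b at chr2:74726070-74726137, Mir196b at chr6:52230081-52230165, Mir196a-1 at chr11:96265164-96265265 and Mir196a-2 at chr15:102973350-102973434.
mmu-miR-10a-5p: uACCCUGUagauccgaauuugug
mmu-miR-10b-5p: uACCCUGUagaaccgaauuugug
mmu-miR-196a-5p: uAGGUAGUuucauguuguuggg
mmu-miR-196b-5p: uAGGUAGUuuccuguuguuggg

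Mir10a, Mir10b and Mir196a-1 had no peak in any list in the promoter window set on the start of their hairpins. Mir196b had 1.97, 1.83, 1.79 and 1.75, and Mir196a-2 had a peak at 8 h (1.93) and in Untreated cells (1.77) only. Mir615, which lies in Hoxc5, had 2.27, 2.23, 2.27 and 2.13, in the Hoxc5 promoter peak in every list but 8 h Activin. The start of a hairpin is not the start of its primary transcript, which was not placed here.

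Long non-coding genes of the clusters in part shared a peak with a HOX promoter. Hoxaas2 had the values of Hoxa2 and Haglr those of Hoxd1. Gm53 had 3.20, 3.11, 3.15 and 3.13 at its own promoter, and Hoxd3os1 3.75, 3.71, 3.02 and 3.87. Hottip, the non-coding gene at the 5′ end of the Hoxa cluster, had a promoter peak at 8 h alone, where the 2664 bp peak of Hoxa13 with 2.40 reached it. Hotair had one at 8 h alone, at 1.98. Hoxb5os, Hotairm2 and Mira had none in any list. Of the coding genes in the flanks, Ttll6 beside Hoxb13 had 4.66, 3.62, 4.03 and 4.10.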

How the data were processed

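According to the methods of the study, reads of ATAC-seq libraries were trimmed with cutadapt 1.9.1, aligned to mm10 with BWA 0.6.2, cleaned, merged per state and freed of duplicates with Picard, and broad peaks were called by MACS2 (2.1.1.20160309) with no control sample. The deposited lists hold, per peak, the authors' fold enrichment, a ratio of pileup to local background, and their -log10 p and -log10 q. All of these are means over a peak of pooled libraries.

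Here, peaks were merged into regions where they overlapped by at least 1 bp, and the highest fold enrichment stood for a region or promoter. Pileup and local background were estimated from fold enrichment and -log10 p, assuming the Poisson test of MACS2. The merging, overlap and estimation steps were tested on simulated data. For the estimates, these data came from the same Poisson model with 1 pileup per peak. How well the estimates hold for values that are means over a wide peak was not tested. Promoters and annotations came from 45756 transcripts of the RefSeq GRCm38.p6 annotation. No test between states was possible with 1 list per state. Members, lists, motifs and rules were chosen with earlier results of these data known. Named were all HOX genes, the other genes of the windows, the 10 strongest regions and, per comparison, the 5 largest rises, falls, gains and losses, of which the chief ones are given. Python 3.11.15, numpy 2.4.6, pandas 2.3.3 and bedtools 2.31.1 (simulated data only) were used. The labels list 48 libraries, and the study's methods name fewer sequenced samples. Reads of single replicates were not analysed here. Values of 1 HOX gene, which is part of all counts and medians, are not reported here.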

Additional observations from a re-analysis of the deposited data

How the results depend on the processing

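No paired analysis was possible because the deposited lists pool both replicates of a state. Of 176 alternative values, 130 were within 1.5 times the reported count or 1.1 times the reported median or share. The cause of a move was not tested unless the setting itself changes the number of peaks or regions.

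Promoters with a peak numbered 11, 12, 11 and 12 with SB-431542, at 1 h, at 8 h and in Untreated cells when the peak centre had to lie in the window. With a -log10 q of at least 5, cover of Hoxa was 21.6% at 8 h and 14.9% in Untreated cells, of Hoxb 19.3%, 21.4% and 18.2% at 1 h, at 8 h and in Untreated cells, of Hoxc 24.5% at 8 h, and of Hoxd 29.5%, 28.4% and 25.7% with SB-431542, at 8 h and in Untreated cells. With 10 kb flanks, cover was 23.6%, 22.4%, 24.2% and 22.4% for Hoxc and 29.5%, 27.4%, 28.8% and 29.7% for Hoxd.

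Regions over 10 points higher numbered 4 at 1 h and 3 in Untreated cells by estimated pileup, and 6 at 8 h and 5 in Untreated cells with no flanks. Regions over 10 points lower numbered 6 at 1 h and 10 at 8 h by estimated pileup, 6 at 1 h with no flanks, 17 at 8 h and 19 in Untreated cells by fold enrichment over the list's median (log2 change over 0.2), and 17 in Untreated cells with a -log10 q of at least 5. These last 3 counts are 14.2%, 15.8% and 19.8% of HOX regions, below the 15.8%, 17.5% and 20.9% of all regions, so the higher HOX share of lower regions is not seen under those settings. Under that q, of 124 HOX regions 1, 3 and 3 were gained and 11, 17 and 24 lost at 1 h, at 8 h and in Untreated cells, where 3.73%, 6.70% and 9.40% of all regions were gained and 15.4%, 21.5% and 19.8% lost. Lost regions numbered 3 at 8 h with lists of equal length, 3 at 8 h and 3 in Untreated cells with 10 kb flanks, 8, 10 and 10 with 100 kb flanks, and 2, 2 and 2 with no flanks.

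The median percentile of HOX promoters in shared regions was 48.4, 53.3, 40.4 and 46.0, highest at 1 h, where the median fold enrichment was highest with SB-431542.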
